A study of Homo sapiens with 12 samples.

Results

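The 26S proteasome is described here through 38 genes, chosen by their symbols from the 23292 genes in the deposited tables. They are the 7 alpha subunits (PSMA1 to PSMA7) and the 7 constitutive beta subunits (PSMB1 to PSMB7) of the 20S core, the 3 induced beta subunits (PSMB8 to PSMB10), the 6 ATPases of the 19S cap (PSMC1 to PSMC6), the 14 PSMD genes and the transcription factor NFE2L1. All 38 were listed. The choice used symbols and no measured value, but it was made with earlier results of these data known.

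RNA was sequenced from HEK293T cells, a human embryonic kidney line that the labels also call HEK293, after 6 h with vehicle (Veh, DMSO) or with 10 µM AA263, AA263yne or AA263-5, with 3 samples in each of the 4 groups and 12 in all. AA263 is a phenylhydrazone that covalently modifies protein disulfide isomerases, and AA263yne, an analog whose B-ring bears an alkyne-containing group where AA263 has a nitro group, and AA263-5 are derived from it. The question the study put to these samples was how selectively the compounds switch on the ATF6 arm of the unfolded protein response. The value used for each gene is the authors' mean normalized value, taken over all 12 samples and identical in the 3 tables, so it pools vehicle and compound-treated cells.

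Differences between compounds and vehicle were not analysed here, because the tables give them only as the authors' own comparisons. No sample's own value, no spread between samples and no depth per sample was used. The levels below are therefore descriptions of treated and untreated cells together, without an error and without a test, and a small difference between 2 subunits should not be read as a difference. The values summed to 36.6 M over all genes. The cell line label was not checked against marker genes.

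The proteasome degrades proteins tagged with ubiquitin. Its 20S core is a barrel of stacked rings, in which beta subunits carry the cutting sites and alpha subunits form the gate, and its 19S cap binds, unfolds and feeds in the substrate. Proteins that fail to fold in the endoplasmic reticulum are returned to the cytosol and degraded by it, and NFE2L1, itself made at the endoplasmic reticulum, raises transcription of subunit genes when proteasome activity falls short.

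Sequences of 2 kinds are shown. One is from PSMC1, which had the lowest level of the constitutive subunits, and is shown because it also occurs at other places in the genome. It gives bases 731 to 780 of the PSMC1 coding sequence in capitals, with 15 bases of lower-case flank on each side. The stretch in capitals occurs, base for base, at 6 other places in GRCh38, each in an annotated pseudogene, among them PSMC1P1 at chr3:68636435-68636484 on the plus strand.
PSMC1: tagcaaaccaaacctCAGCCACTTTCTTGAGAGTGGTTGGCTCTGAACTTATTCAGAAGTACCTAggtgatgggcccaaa

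The other kind is matches to the core of the antioxidant response element, the DNA motif that NFE2L1 and its relatives bind, in promoters of the genes. The letters searched were TGACNNNGC on both strands, so that a match on the other strand reads GCNNNGTCA, over 250 bases before to 50 bases after each RefSeq start (GRCh38.p14). The motif is in capitals, and each sequence reads 5′ to 3′ on the strand of the gene. They are shown because subunit genes are known targets of NFE2L1.
PSMB3, chr17:38752631-38752651, plus strand: ccgtttTGACTTTGCaaccaa
PSMB9, chr6:32854038-32854058, plus strand: ggggctGCCTCGTCActtgtc
PSMC4, chr19:39971186-39971206, plus strand: aggccgGCTTGGTCActatgg
PSMD1, chr2:231056900-231056916, plus strand: ggcgacTGACTGAGCag
PSMD3, chr17:39980764-39980784, plus strand: ctttgtTGACTCGGCcatcgg
PSMD3, chr17:39980834-39980854, plus strand: gcagctGCTCCGTCAtcgtgc
PSMD5, chr9:120843042-120843062, minus strand: tacagtTGACACGGCcctaac
PSMD9, chr12:121888635-121888655, plus strand: actcctGCCGGGTCAccacag
PSMD9, chr12:121888682-121888702, plus strand: ttccggTGACCCAGCtccgcc
PSMD12, chr17:67366728-67366748, minus strand: aaaaccTGACGCTGCaggctg

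Transcripts of the proteasome were among the more abundant ones in these cells. Levels were compared per kilobase, meaning the mean normalized value divided by the length of the gene's MANE Select transcript. The median of the 38 genes lay at percentile 94.7 of the 17942 genes with a length. A mean normalized value of at least 10 was found for 37 of the 38 genes, of at least 100 for 36 and of at least 1000 for 33. The 31 subunits that build the constitutive particle (alpha, constitutive beta, ATPase and 11 non-ATPase subunits) had a median of 3623 per kilobase, against 206 over the genes with a value of at least 10. Of these 31, 24 stood at or above the 90th percentile and 18 lay within 2-fold of their own median.

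**Figure D1:**
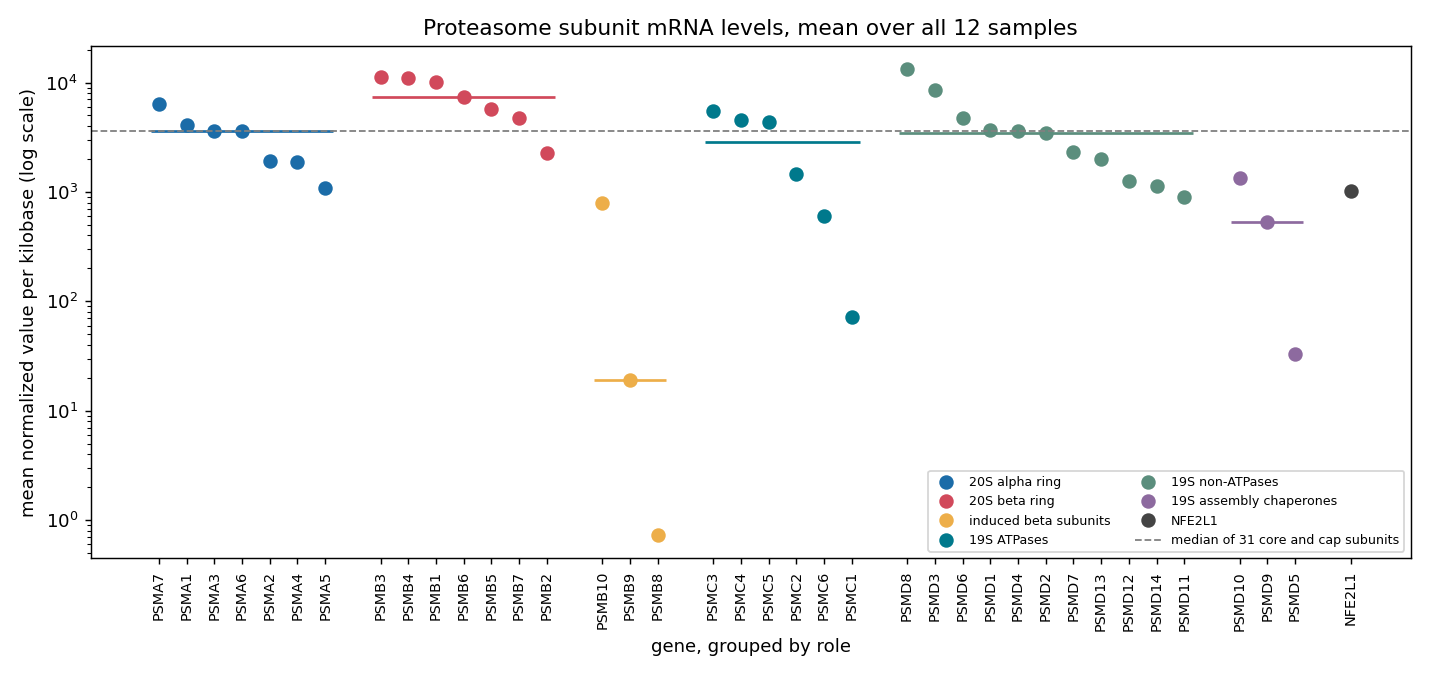
Level of each of the 38 genes, as the authors' mean normalized value over all 12 samples per kilobase of transcript on a log axis, grouped by role and ordered within it. Each point is a gene, short coloured lines are the medians of roles with several genes, and the dashed line is the median of the 31 constitutive subunits (3623). Most subunits lie within one decade, while PSMC1 (72.2), PSMD5 (33.3), PSMB9 (19.1) and PSMB8 (0.732) lie far below.

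The 7 alpha subunits, which form the outer rings and the gate of the core, had a median of 3596 per kilobase, 0.993 of the median subunit. PSMA7 was the highest at 6391 and PSMA1 followed at 4125. PSMA3 (3603) and PSMA6 (3596) were nearly equal. PSMA2 (1937), PSMA4 (1884) and PSMA5 (1092) had the lowest levels per kilobase, and 6 of the 7 were within 2-fold of the median subunit. This order depends on the length used. Per kilobase of coding sequence PSMA4 was instead the highest at 10532, above PSMA7 at 8263. It was also the highest with no division by length, at 8246.

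Constitutive beta subunits gave the highest median of any role, 7378 per kilobase or 2.04 times the median subunit. They held 38.2% of the summed level of the 20S and 19S subunits, induced ones included, against 16.5% for the 7 alpha subunits. PSMB3 (11216), PSMB4 (10916) and PSMB1 (10121) came directly after PSMD8, the highest of all 38 genes, and none of these 3 carries a cutting site. Among the beta subunits, the catalytic ones came next, with PSMB6, which carries the caspase-like activity, at 7378, PSMB5, which carries the chymotrypsin-like activity, at 5769, and PSMB7, which carries the trypsin-like activity, at 4727. PSMB2 was the lowest at 2284. The alpha and beta ranges overlapped, since 4 alpha subunits exceeded PSMB2 and PSMA7 exceeded PSMB5. This order holds per kilobase of transcript. Per kilobase of coding sequence PSMB2 was instead the highest beta subunit, at 16766. It then lay above every alpha subunit, of which PSMA4 was the highest at 10532.

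The induced beta subunits, which replace the catalytic ones in the immunoproteasome when cells are exposed to interferon, lay below every constitutive beta subunit. PSMB8, the counterpart of PSMB5, had a mean normalized value of 0.823, less than 1 per sample, and 0.732 per kilobase. This is 0.0127% of PSMB5, a ratio that rests on very few reads. PSMB9, the counterpart of PSMB6, stood at 19.1 per kilobase or 0.259% of PSMB6. With the union of exons as length, these ratios were 0.00608% for PSMB8 and 0.138% for PSMB9. PSMB10, the counterpart of PSMB7, was much higher than both at 799.7 per kilobase, 16.9% of PSMB7 and at percentile 82.6 of all genes. The 3 induced genes thus did not share a level, and together they held 0.597% of the summed level.

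PSMB8 (chr6:32840717-32844679, minus strand) and PSMB9 (chr6:32844136-32859851, plus strand) lie next to each other in opposite directions and share 139 exonic bases. Exonic bases are counted over all annotated transcripts of each gene. The RefSeq promoter of PSMB9, with its match at chr6:32854038-32854058, lies beyond the end of PSMB8. The antisense transcript PSMB8-AS1 shares 602 exonic bases with PSMB8 and had a mean normalized value of 94.8, above both PSMB8 (0.823) and PSMB9 (19.4). The labels describe strand-specific libraries, but whether the counting used strand is not given in the sources used here. PSMB8-AS1 also shares 174 exonic bases with PSMB9 on the same strand, where strand cannot separate the reads. The low values of both genes are thus uncertain.

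The 6 ATPases form the ring that unfolds substrates at the base of the cap, and they showed the widest range of any constitutive role. PSMC3 (5483 per kilobase), PSMC4 (4555) and PSMC5 (4326) lay above the median subunit, but PSMC5 was below it with coding length, at 0.852. PSMC2 (1449.9) lay below the median subunit, PSMC6 reached 599, and PSMC1 only 72.2. PSMC1 was thus 50.2 times below the median subunit and at percentile 45.8 of all genes. This distance depended on the length used, since PSMC1 stood at 0.0199 of the median subunit per kilobase of transcript, at 0.0433 with coding length, at 0.0367 with the union of exons and at 0.0551 with no division. As background, the PSMC1 protein is an obligatory part of the same ring as the other ATPases. PSMC1 and PSMC6 were the lowest and second lowest of the 31 subunits, and this order was the same with transcript length, coding length, the union of exons or no division by length.

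Both of these ATPases share long stretches of sequence with other loci. Every window of 50 bases, the read length given in the study's methods, was searched for exact copies elsewhere on the primary chromosomes of GRCh38, a step chosen after the levels were seen. In PSMC1 (chr14:90256527-90275429, plus strand, 11 exons), 1254 of 1271 coding windows (98.7%) had a copy at 1 or more of 11 loci, all of them annotated processed pseudogenes. PSMC1P1, at chr3:68635705-68637024, alone held 1221 of these windows. The first 884 coding bases of PSMC1 were covered by copies without a break. The stretch shown above is the first of its coding windows with the most copies, and noncoding windows were not compared. In PSMC6 (chr14:52707178-52728590, plus strand), 529 of 1118 coding windows (47.3%) had a copy, at 2 loci.

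PSMA6 (35.0% of coding windows) and PSMD4 (25.0%) also had copies, and their levels of 3596 and 3623 per kilobase were at the median subunit. PSMD4, the ubiquitin receptor of the cap, has its copy in the transcribed pseudogene PIPSL on chromosome 10. Over whole transcripts, 4 of the 38 genes had more than 20% of windows elsewhere (PSMC1 37.96%, PSMC6 30.7%, PSMA6 27.6%, PSMD4 23.4%), against 5.60% of the 14050 genes with a value of at least 10. In 18 of the 38 no window had a copy, which was also so in 58.5% of the genes with a value of at least 10. The 4 genes had a median level of 2098 per kilobase and the other 27 constitutive subunits one of 4125. Over the 31 subunits, Spearman's rho between the level and the share of windows with a copy was -0.45, a description over genes measured in the same libraries. How the authors' aligner and counter treated reads that match several places is not given in the sources used here, and the part of these copies in the low values was not tested. The levels of PSMC1, PSMC6, PSMA6 and PSMD4 are therefore uncertain.

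**Figure D2:**
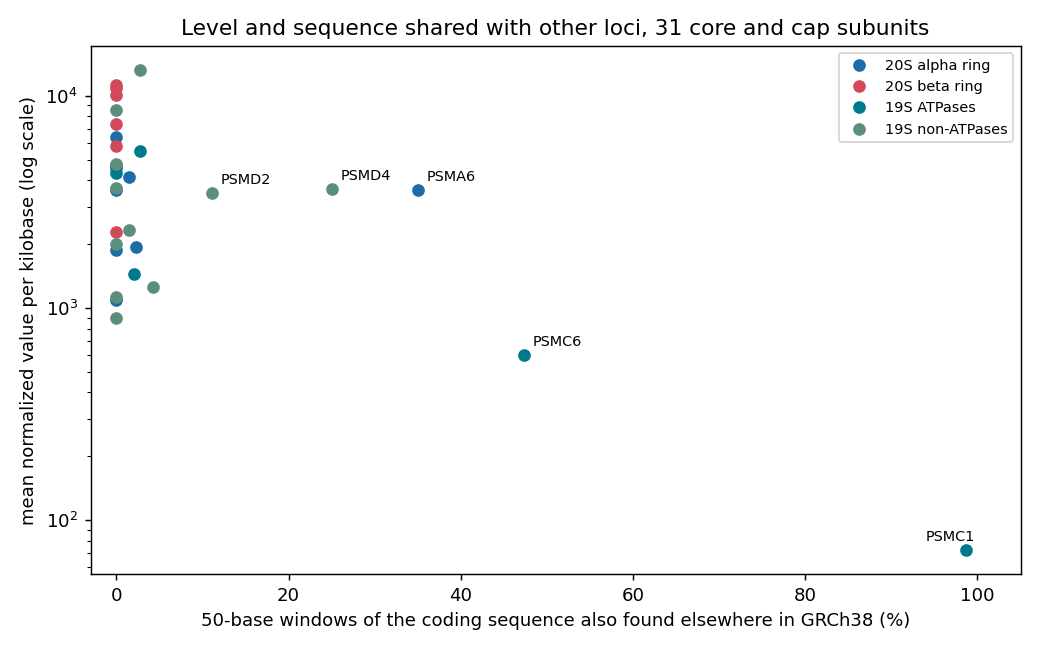
Level per kilobase (log axis) of the 31 constitutive subunits against the share of 50-base windows of their coding sequence that occur elsewhere in GRCh38, coloured by role. PSMC1 (98.7%) and PSMC6 (47.3%) have the largest shares and the lowest levels (72.2 and 599), while PSMA6 and PSMD4, with 35.0% and 25.0%, lie at the level of the other subunits.

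PSMC1 also overlaps a gene on the opposite strand. Over the exons of all annotated transcripts of each gene, it shares 4667 bases with NRDE2. This is more than the 4390 bases of the PSMC1 transcript used for its level, so not all of them lie in that transcript. The mean normalized value of NRDE2, 931, was above that of PSMC1 (317). The other overlaps below are counted in the same way. PSMC5 shares 655 exonic bases with FTSJ3 on the opposite strand, and the values of the pair were close, at 5758 for PSMC5 and 6150.1 for FTSJ3. PSMC2 shares 112 exonic bases with PMPCB on the same strand. Of the 38 genes, 15 (39.5%) share exonic bases with another annotated gene, 12 of them (31.6%) with one on the opposite strand. These shares were 54.2% and 43.9% over the 14051 genes with a value of at least 10. Of the 15, 7 share bases with a gene on the same strand, where strand cannot separate the reads. The longest such overlap was 1445 bases, in PSMA2. The share with same-strand overlap over all genes was not computed. For genes with an overlap, reads of the partner may have entered the value.

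Among the 11 non-ATPase subunits of the cap, the median was 3492 per kilobase. PSMD8, a lid subunit, had the highest level of all 38 genes at 13226, 3.65 times the median subunit. PSMD3, also of the lid, followed at 8547 and PSMD6 at 4753. PSMD1 (3681) and PSMD2 (3492), the large scaffold subunits of the base, and PSMD4 (3623) lay close to the median subunit. PSMD7 (2336) and PSMD14 (1128) form the deubiquitinating pair of the lid, in which PSMD14 is the active enzyme. Relative to the median subunit, PSMD14 stood at 0.311 with transcript length and at 0.171 with the union of exons. PSMD13 stood at 1992, PSMD12 at 1249 and PSMD11 at 898. Between PSMD8 and PSMD11 the range was 14.7-fold. It was narrower per kilobase of coding sequence, where PSMD8 stood at 19120.4, PSMD11, with 2584 noncoding bases in its transcript, at 2731, and PSMD14 was the lowest at 1901.

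PSMD5, PSMD9 and PSMD10 carry PSMD names but act as chaperones that assemble the base and leave before the particle is complete. All 3 were below the median subunit. PSMD10 reached 1334 per kilobase, PSMD9 526 and PSMD5 33.3, so the chaperones differed 40.0-fold among themselves. PSMD9, with 2056 noncoding bases, stood at 0.145 of the median subunit with transcript length and at 0.386 with coding length. Of the 38 genes, PSMB8 and PSMB9 alone were lower than PSMD5, which had a mean normalized value of 113.

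NFE2L1 (chr17:48048329-48061545, plus strand) stood at 1030.3 per kilobase, 0.284 of the median subunit and at percentile 85.7 of all genes. Its mean normalized value of 4986 was in the range of the subunits, and the lower level per kilobase goes with a transcript of 4839 bases, of which 2316 are coding. Relative to the median subunit it was 0.388 per kilobase of coding sequence, 0.601 with the union of exons and 0.866 with no division.

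The length used changed the place of several subunits. The 20S genes with the longest noncoding part in their MANE Select transcript had 3823 noncoding bases (PSMB2), 3595 (PSMA4) and 3092 (PSMA5). PSMB2 moved from 21st of 31 subunits per kilobase of transcript to 2nd per kilobase of coding sequence, where its level was 3.02 times the median subunit. PSMA4 moved from 24th to 7th and PSMA5 from 28th to 14th. In the cap, PSMD12 moved from 0.345 of the median subunit with transcript length to 0.717 with coding length, and PSMD11 from 0.248 to 0.492. PSMD8 was 1st under both, but with the union of exons PSMB3 was the highest, at 5.19 times the median subunit. PSMB3 itself was at 3.10 times with transcript length and at 1.48 times with no division. PSMC6 and PSMC1 remained 30th and 31st. Whether cells use the long or a shorter end of these transcripts was not measured. The levels of PSMB2, PSMA4, PSMA5, PSMD11 and PSMD12 are therefore known only within such ranges.

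**Figure D3:**
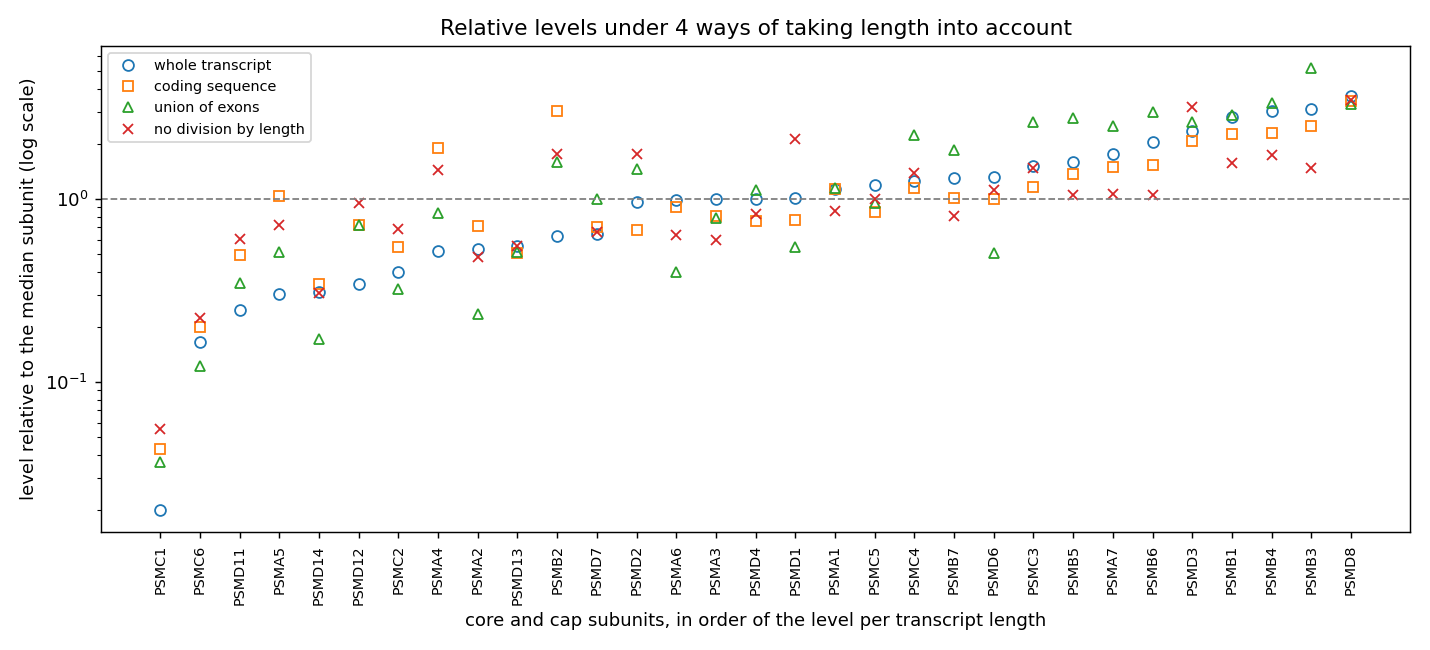
Level of each of the 31 constitutive subunits relative to the median subunit (log axis) when the mean normalized value is divided by transcript length, coding length or the union of exons, or not divided. Subunits are ordered by the first of these. PSMB2, PSMA4 and PSMA5 rise when the coding sequence is used, while PSMC1 and PSMC6 stay the lowest under all 4.

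Over the 31 subunits, Spearman's rho of the level per kilobase was -0.71 with transcript length and 0.71 with the GC content of the transcript. The same correlations over 14051 genes with a value of at least 10 were -0.30 and 0.078. Length is also the divisor of the level, and with coding length as divisor the values over the subunits were -0.40 and 0.46. These are descriptions across genes, which are not independent of each other. The subunits have short transcripts, with a median of 1540.0 bases against 3256 over the genes with a value of at least 10.

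Genes that act with the proteasome were looked up from lists written with earlier results of these data known. Of 6 chaperones that assemble the core or cap, POMP (3490 per kilobase), which matures the beta ring, and PSMG1 (3632), which starts the alpha ring, stood at the level of the median subunit, and the median of the 6 was 1076. Per kilobase of coding sequence POMP reached 11039 and PSMG1 7374, against 5548 for the median subunit. Its partner PSMG2 was lower at 985, and PAAF1 lowest at 153. Of the activators and further subunits, 10 of 12 were matched to a length. ADRM1, a ubiquitin receptor of the cap, reached 9917, and PSME3, the nuclear activator, 4477. Per kilobase of coding sequence their order was reversed, with PSME3 at 18693 and ADRM1 at 11200. The interferon-induced activator subunits PSME1 (616) and PSME2 (906) were below them but far above PSMB8 and PSMB9. PSMA8, the alpha subunit of the testis, was at 0.202.

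The enzymes that process NFE2L1 differed widely. VCP, which pulls the protein out of the membrane, stood at 4531 per kilobase, above the median subunit. SYVN1, the ubiquitin ligase of the endoplasmic reticulum that marks it for degradation, was at 1434, NGLY1, which removes its sugars, at 712, and DDI2, the protease that cuts it, at 73.5. The related factors NFE2L2 (1045) and NFE2L3 (165) and the small MAF partners MAFG (39.9), MAFK (23.1) and MAFF (11.7) were also listed. With the ubiquitin ligase subunits BTRC (368) and FBXW7 (78.3) and NFE2L1 itself, the 12 genes of the list had a median of 267. DDI2 has a transcript of 10667 bases, and per kilobase of its coding sequence its level was 655.

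All 5 genes of the ubiquitin list exceeded the median subunit per kilobase of transcript, from RPS27A at 5165 per kilobase to UBB at 50417, with the activating enzyme UBA1 at 17376. UBB and RPS27A have 34.5% and 50.3% of their windows elsewhere in the genome, so their levels are uncertain in the same way as that of PSMC1. The 7 ubiquitin enzymes and shuttle receptors described here had a median of 1339, from USP14 (430 per kilobase, a deubiquitinase of the cap) to the shuttle receptor UBQLN1 (2696). Per kilobase of coding sequence the lowest of them was UBQLN2 at 1305 and the highest RAD23B at 8574. Of the 7, UBQLN4 had 53.2% of its windows elsewhere, and its level of 1525 is uncertain too.

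**Figure D4:**
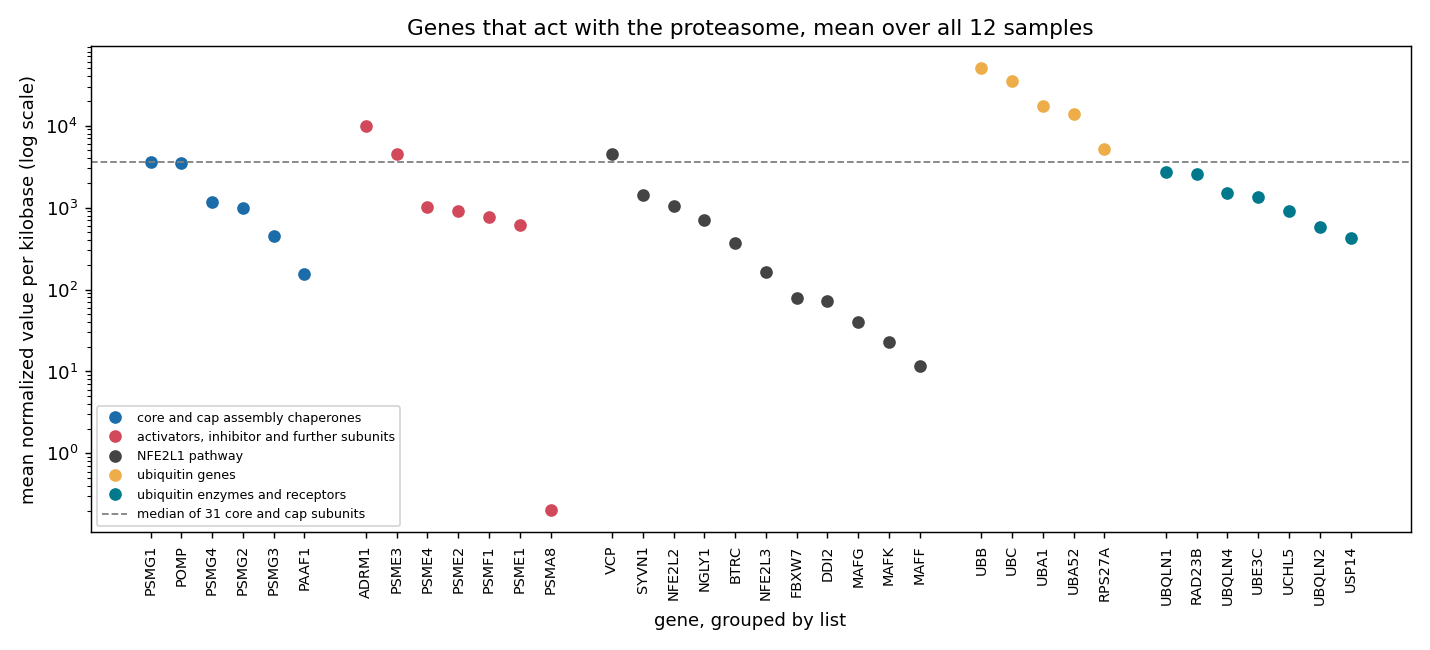
Level per kilobase (log axis) of the genes that act with the proteasome, by list, as the authors' mean over all 12 samples, with the median of the 31 constitutive subunits (3623) as a dashed line. Ubiquitin genes lie above the line, POMP and PSMG1 on it, and most of the NFE2L1 pathway below it, down to MAFF at 11.7.

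The promoters of 33 of the 38 genes were matched in RefSeq (GRCh38.p14). The motif TGACNNNGC was found in 8 of the 33 (24.2%), which are the 8 genes whose matches are shown above, and in 14.9% of 11277 promoters of genes with a value of at least 10. Among the constitutive subunits alone it was found in 5 of 26 (19.2%). Genes with a match spanned nearly the whole range of levels, from PSMB9 (19.1) and PSMD5 (33.3) to PSMD3 (8547) and PSMB3 (11216). PSMD3 and PSMD9 each had a pair of matches. The CCAAT box, searched on both strands, was found in 17 of the 33 (51.5%) and in 36.8% of the promoters of genes with a value of at least 10. The NFE2L1 promoter held 5 CCAAT matches and none to TGACNNNGC. Median GC content was 61.3% in the 33 promoters and 65.3% over the genes with a value of at least 10. A match describes letters in this window only and says nothing of binding.

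The 38 genes lie on 15 chromosomes, with 7 on chromosome 17 and 5 on chromosome 14. For neighbouring genes, the start was taken as the outermost end of each annotated gene, not as the RefSeq start of the promoter search. These can lie far apart. PSMB9 begins at chr6:32844136 in the annotation, well before its RefSeq promoter match at chr6:32854038-32854058. Pairs of RefSeq starts were not searched. By the outermost ends, 6 of the 38 (15.8%) start within 1000 bases of a protein-coding gene that runs away from them on the opposite strand. Pairs that overlap at the starts were not counted. The share was 11.1% of 13143 protein-coding genes with a value of at least 10. PSMD13 and the mitochondrial deacetylase gene SIRT3 start 35 bases apart, at 1992 and 262 per kilobase. PSMA2 and the mitochondrial ribosomal gene MRPL32 start 191 bases apart, at 1937 and 3133. In 5 of these 6 pairs the subunit had the higher level per kilobase, with MRPL32 as the exception.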

How the data were processed

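Poly(A)-selected RNA from 12 samples was sequenced. Alignment to GRCh38 in DNAstar SeqManPro and quantification in ArrayStar and QSeq were done by the authors, who then ran DESeq2 (version 1.40.1 in the submitters' processing notes). Scaling by DESeq2's size factors and averaging over the 12 samples gave the deposited signal, as the authors' column header shows. The methods name RPKM as input, but RPKM times length in kilobases can sum to at most 1 M and these values give 119 M, so they were divided by length here. The 3 tables also hold the authors' comparisons (log2 fold change, standard error, Wald statistic, p-value and adjusted p-value), which were not used. Size-factor scaling does not remove gene length, and sequence shared between loci can lower or raise a value, depending on how the counter treats such reads. No per-sample depth and no counting interval was computed.

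Gene symbols were matched to GENCODE 44 on GRCh38, for 17942 of 23292 genes (907 by an older symbol) and 89.9% of the 15638 genes with a value of at least 10. A further 23 symbols per table read as dates or numbers and were left unmatched. Annotation is later than the authors'. Exact copies were searched with windows of 50 bases, a step tested on simulated data. Python 3.11.15, pandas 2.3.3, numpy 2.4.6, numba 0.67.0, scipy 1.17.1 and matplotlib 3.10.9 were used.

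The members, lists and motifs were chosen with earlier results of these data known. Genes named are the 38 members and the genes of the related lists. The rule also allowed pseudogenes by their value, but no pseudogene value was used. NRDE2, FTSJ3, PMPCB, PSMB8-AS1, PIPSL, PSMC1P1, SIRT3 and MRPL32 were named after their overlaps or positions were seen. Alternatives were other lengths and filters. Protein sequences were not used here, SEM1 and PSMB11 of the related lists were not matched to a length, and 1 further gene of these lists is not reported here.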

Additional observations from a re-analysis of the deposited data

How the results depend on the processing

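Of 74 values recomputed under other lengths, filters or sets of members, 59 stayed within 1.5 times the value reported and 15 moved further. That limit was used because no spread between samples was used here. The median of the non-ATPases was 0.601 of the median subunit when all 14 PSMD genes were counted as such, an alternative added after the data were seen, against 0.964 with the 3 chaperones apart. Without division by length, the induced beta subunits had a median of 0.00337 of the median subunit and held 0.389% of the summed level, and NFE2L1 rose to 0.866. With the union of all exons, NFE2L1 was 0.601, PSMB8 was 0.00608% of PSMB5 and PSMB9 was 0.138% of PSMB6. The alternatives of length change only the divisor, so these movements come from the lengths. The constitutive beta subunits had the highest median of the 4 constitutive roles under each of these settings (1.48 to 2.88 times the median subunit), and removing the 4 genes with over 20% of windows elsewhere moved no role median by more than 1.5 times. The planned addition of pseudogene values to PSMC1 and the other genes with copies was not run. No paired analysis was possible because the result comes from no test, and no sample could be left out of a mean taken over all samples. The values of PSMB8 (0.823) and PSMA8 (0.362), below 1 per sample, rest on few reads.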
